A study of Homo sapiens with 5 samples.

Results

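Iron uptake, storage and the iron regulatory proteins are described here through 10 genes chosen by name for these roles. They are TFRC and SLC11A2 for uptake, SLC25A37 and SLC25A28 for import into mitochondria, FTH1, FTL and NCOA4 for storage and release, HMOX1 for the recovery of iron from haem, and ACO1 and IREB2 for control. All 10 have a row in the deposited expression table, which holds 13822 gene rows. The cells were RH4, an established human line of alveolar rhabdomyosarcoma, a childhood tumour with features of early skeletal muscle. Each culture was given 30 nM siRNA, and its RNA was collected 24 h after a medium change made 24 h into the treatment. The si-SCR group received a control siRNA and has 3 biological replicates. The si-circVAMP3 group received an siRNA against circVAMP3, a circular RNA made from the VAMP3 gene, and has 2. Polyadenylated RNA was sequenced on stranded libraries, and the comparison asks how mRNA levels differed once the circular RNA was targeted.

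A cell takes up transferrin-bound iron through TFRC, moves it out of the endosome with SLC11A2, and sends it to mitochondria for haem and iron-sulfur clusters or to the ferritin shell for storage. When iron is scarce, the iron regulatory proteins bind a hairpin, the iron-responsive element, in target mRNAs. Bound before the coding sequence of a ferritin mRNA the proteins block its translation, and bound after the coding sequence of TFRC they protect the mRNA from decay.

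The hairpins are shown because they are what the regulatory proteins read in the mRNAs of FTL and TFRC, and because ferritin control through them acts on translation, which an mRNA level does not measure. Each window holds 30 bases in the direction of the mRNA, with the 6 loop bases in capitals. They come from transcripts of the GENCODE annotation of GRCh38, searched for a C, 5 bases, CAGTGN and 5 bases that pair with the first 5.
FTL, 5′ UTR, chr19:48965335-48965364, plus strand: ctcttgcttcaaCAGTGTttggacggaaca
TFRC, 3′ UTR, chr3:196050978-196051007, minus strand: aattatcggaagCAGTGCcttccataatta
TFRC, 3′ UTR, chr3:196050574-196050603, minus strand: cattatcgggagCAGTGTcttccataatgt
TFRC, 3′ UTR, chr3:196050509-196050538, minus strand: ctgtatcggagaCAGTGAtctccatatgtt
TFRC, 3′ UTR, chr3:196050462-196050491, minus strand: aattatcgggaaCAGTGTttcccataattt

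This pattern, the paired stem included, occurs in the 5′ UTR of 11 of 11982 canonical transcripts of genes in the table, or 0.0918%, and in the 3′ UTR of 98 of 11998, or 0.817%. The 3′ UTR of TFRC holds 4 matches. The search found none in SLC11A2, SLC25A28, NCOA4, HMOX1, ACO1 or IREB2, which says only that no such run with a paired stem was found and does not exclude other forms of the hairpin. The UTRs of SLC25A37 were not analysed here.

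The siRNA against circVAMP3, as listed by the study, was CAUCAUCGGUGGUGGACAUUU. Its first 19 bases span the back-splice junction, where 8 bases match VAMP3 mRNA up to base 371 and the next 11 match from base 161. The deposited table holds linear VAMP3 mRNA only, so it checks the label only indirectly. VAMP3 stood at 36.4, 35.4 and 37.4 FPKM in si-SCR replicates 1 to 3 and at 29.4 and 30.2 FPKM in the si-circVAMP3 replicates. FPKM are fragment counts scaled by exon length and library size, so levels of different genes can be set side by side as far as the exon lengths used are right. Linear VAMP3 fell, with a log2 difference of -0.29 (SE 0.0432, limma, adjusted p = 0.00496), and without si-circVAMP3 replicate 1 the adjusted p was 0.0507. Only 1 siRNA sequence was used against circVAMP3, so the loss of the circular RNA and any other action of that siRNA cannot be told apart.

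The 5 libraries held 18552661 to 28705009 reads over the gene rows, the fewest in si-circVAMP3 replicate 1. Of 13 markers of alveolar rhabdomyosarcoma 12 had a row. They summed to 980, 956 and 815 FPKM in si-SCR and 774 and 789 FPKM in si-circVAMP3. DES, an intermediate filament of muscle, was the most abundant of them in every library. Having a row means only that a gene passed the authors' filter on low counts, so the list does not by itself identify the line. Over these 12 the median log2 difference was -0.20, and MYOG, CHRNG and FOXO1 stood at -0.76, -0.59 and -0.26 (limma). In 6 of the 12 every si-circVAMP3 value lay below every si-SCR value, against 28.9% of all rows tested. In 0 did every value lie above, against 29.5%. MYOG, CHRNG and FOXO1 were called lower, FOXO1 not without si-SCR replicate 2 or either si-circVAMP3 replicate (adjusted p from 0.0801 to 0.154, limma), and MYF5 had no row. Of 11 markers of blood, epithelial, endothelial and fibroblast cells, only DCN and PECAM1 had a row, summing to at most 0.934 FPKM, and the other 9, PTPRC, HBB and EPCAM among them, had none. The part of the marker differences in the iron results was not tested. The replicates of a group differed beyond sampling noise, and si-SCR replicate 3 stood furthest from its group.

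FTL and HMOX1 rose after circVAMP3 was targeted, and these 2 were the members called. FTL, the ferritin light chain, was 1.47-fold higher and HMOX1, the enzyme that opens haem and frees its iron, was 1.64-fold higher by the ratio of group means. The other 8 members did not pass the test, with log2 differences from -0.08 to 0.19 and adjusted p from 0.0659 to 0.583 (limma). More mRNA per cell and more cells holding the mRNA cannot be told apart in bulk RNA.

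In the main setting a share of 20% of members called stood beside 3723 of the 12245 rows tested, or 30.4%, called at an adjusted p under 0.05. Counted by direction, 2 of 10 members were called higher, against 14.6% of all rows, and 0 were called lower, against 15.8%. These shares of all rows move with the setting, to 16.4% higher and 13.8% lower with a common median and to 3.94% higher and 6.35% lower without si-circVAMP3 replicate 2. With an added limit of 0.58 on the absolute log2 difference, 1 member, HMOX1, was called, against 3.81% of rows. Which members pass this limit rests on the libraries, as FTL passed beside HMOX1 without si-SCR replicate 2 and in its place without si-circVAMP3 replicate 1. The number of calls over all rows rests on the libraries: it was 2199 (18.0%) without si-SCR replicate 2, 1305 (10.7%) without si-circVAMP3 replicate 1 and 1260 (10.3%) without si-circVAMP3 replicate 2, each with 2 members called. The share of members was then above that of all rows, so whether it lies above or below is not settled.

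In 6 of the 10 members every si-circVAMP3 value lay above every si-SCR value, against 29.5% of all rows tested. They were TFRC, SLC25A28, FTL, HMOX1, ACO1 and IREB2. In none did every si-circVAMP3 value lie below, against 28.9% of rows. The median log2 difference was 0.13 over the members and 0.01 over all rows tested. With 3 libraries against 2, the smallest p an exact permutation test can give, counting the smaller tail for both sides, is 0.2, so such a separation alone cannot pass a threshold of 0.05.

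**Figure D1:**
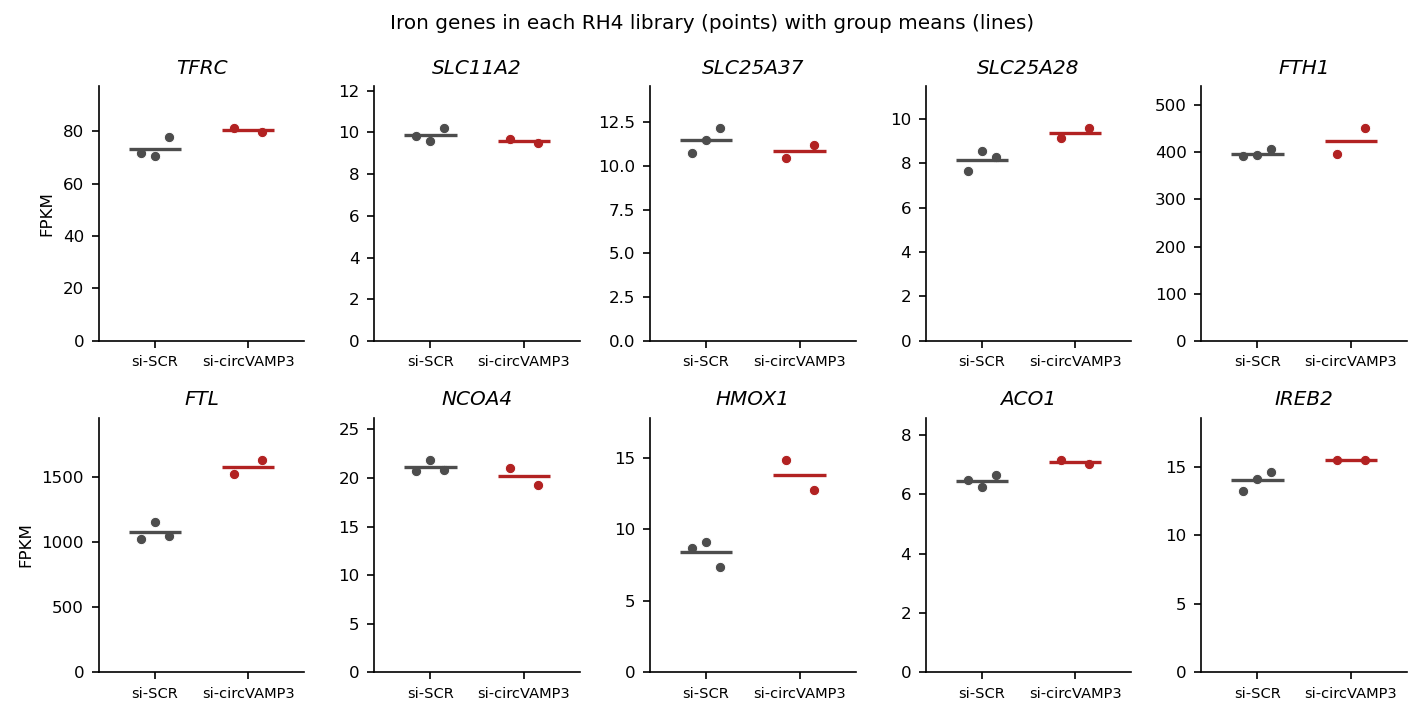
FPKM (vertical axis, from 0, a separate scale for each gene) of the 10 iron genes in the 3 si-SCR libraries (grey) and the 2 si-circVAMP3 libraries (red); points are libraries and lines are group means. The groups lie apart by more than their spread in FTL and HMOX1, close together without overlap in TFRC, SLC25A28, ACO1 and IREB2, and overlap in SLC11A2, SLC25A37, FTH1 and NCOA4.

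TFRC, the transferrin receptor, is the main entry for iron into dividing cells (chr3:196012511-196082153, minus strand). Its level was 71.5, 70.7 and 77.9 FPKM in si-SCR and 81.0 and 79.7 FPKM in si-circVAMP3. Both si-circVAMP3 libraries were above all si-SCR libraries, the nearest being si-SCR replicate 3. The group means were 73.4 ± 3.92 (SD, n = 3) and 80.4 ± 0.912 (SD, n = 2) FPKM. The log2 difference was 0.13 with a 95% interval of 0.01 to 0.26 and did not pass the test (limma, adjusted p = 0.0982). Without si-SCR replicate 3 it was 0.18 with an adjusted p of 0.0148 (limma). A block for the replicate number gave the same difference of 0.18, with an adjusted p of 0.0402 (limma). Only si-SCR has a replicate 3, so the block sets that library aside too. Whether TFRC is called thus rests on si-SCR replicate 3. Under quantile normalization the difference was 0.08. The 4 hairpins shown for TFRC lie in the part of its mRNA that sets its decay, and the data give its level only.

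SLC11A2, also called DMT1, carries ferrous iron across the endosomal membrane (chr12:50979401-51028566, minus strand). It stood at 9.85, 9.59 and 10.2 FPKM in si-SCR and at 9.69 and 9.49 FPKM in si-circVAMP3. The groups overlapped. The log2 difference was -0.04, with a 95% interval of -0.16 to 0.08 (limma, adjusted p = 0.583), and ranged from -0.0609 to -0.0189 with a library left out. It rests on 1775 to 2702 reads per library.

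Mitoferrins move iron through the inner mitochondrial membrane. SLC25A37, mitoferrin-1, is best known from developing red cells. It was measured at 10.8, 11.5 and 12.1 FPKM in si-SCR and at 10.5 and 11.2 FPKM in si-circVAMP3. The groups overlapped, and the log2 difference was -0.08 with a 95% interval of -0.23 to 0.08 (limma, adjusted p = 0.418), and ranged from -0.123 to -0.0298 with a library left out. SLC25A28, mitoferrin-2, is the widely expressed form (chr10:99610519-99622793, minus strand). Its values were 7.64, 8.57 and 8.26 FPKM in si-SCR and 9.14 and 9.56 FPKM in si-circVAMP3. The groups did not overlap, yet the log2 difference of 0.19 (95% interval 0.04 to 0.34) missed the threshold (limma, adjusted p = 0.0659). In each of the 5 libraries the level of SLC25A37 was above that of SLC25A28.

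Ferritin stores iron in a shell of heavy and light chains. The light chain, FTL, has no enzyme activity of its own and aids the formation of the iron core (ENSG00000087086, chr19:48965309-48966879, plus strand). FTL mRNA was at 1024, 1152 and 1046 FPKM in si-SCR and at 1525 and 1629 FPKM in si-circVAMP3. Both si-circVAMP3 libraries exceeded the highest si-SCR library, replicate 2, by more than the whole spread among the si-SCR libraries. The group means were 1074 ± 68.2 (SD, n = 3) and 1577 ± 74.1 (SD, n = 2) FPKM. The log2 difference was 0.55 (SE 0.0654, 95% interval 0.40 to 0.71), called by limma with an adjusted p of 0.00207. It rests on 22731 to 40868 reads per library. FTL was called with each library left out in turn. Among all rows tested its rise ranked 160 of 12245.

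The heavy chain, FTH1, oxidises ferrous iron as it enters the shell (chr11:61959718-61967634, minus strand). FTH1 mRNA was at 392, 393 and 406 FPKM in si-SCR and at 396 and 450 FPKM in si-circVAMP3. The si-circVAMP3 replicate 1 value fell inside the si-SCR range, and replicate 2 lay above it. The log2 difference was 0.09 with a 95% interval of -0.06 to 0.23 (limma, adjusted p = 0.31). It had no stable direction, being -0.00364 without si-circVAMP3 replicate 2 and -0.02 after quantile normalization. The intervals of FTL and FTH1 did not overlap on the log2 scale.

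The ratio of FTL to FTH1 within a library does not depend on how libraries were scaled to each other. It was 2.61, 2.93 and 2.57 in si-SCR and 3.85 and 3.62 in si-circVAMP3. The groups lay apart, with means of 2.71 ± 0.195 (SD, n = 3) and 3.73 ± 0.163 (SD, n = 2). The ratio was formed after the values had been seen and is given as a description. The summed level of both chains was 1416, 1545 and 1453 FPKM in si-SCR and 1921 and 2080 FPKM in si-circVAMP3.

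**Figure D2:**
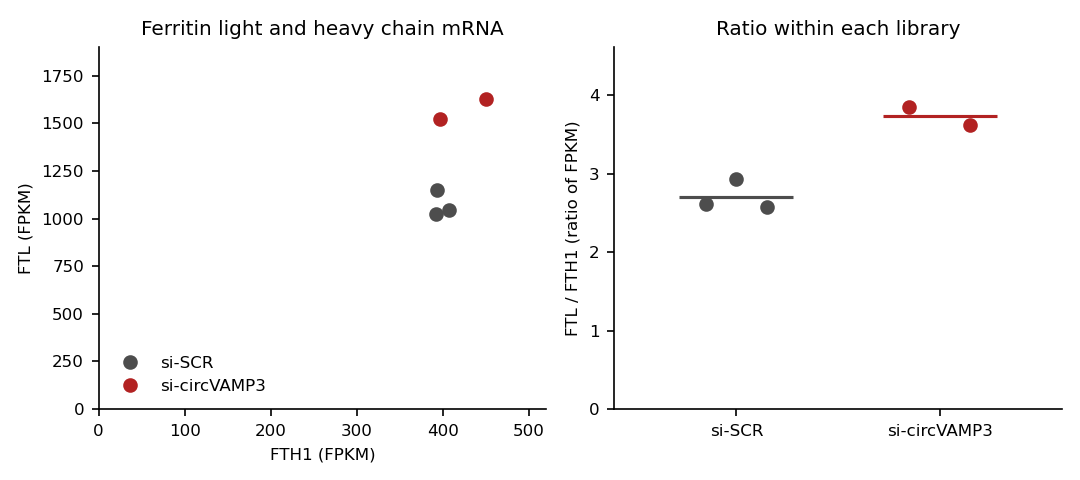
Left, FTL against FTH1 (both in FPKM, axes from 0), with each point a library of si-SCR (grey, n = 3) or si-circVAMP3 (red, n = 2); right, the FTL to FTH1 ratio within each library, lines showing group means. The si-circVAMP3 libraries lie higher on the FTL axis but not clearly to the right, and their ratios of 3.85 and 3.62 are above the highest si-SCR ratio of 2.93.

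Ferritin genes have many processed copies in the genome, and reads that fit a copy as well as the gene may have been lost or split in the authors' counting. The table holds 7 rows of such copies, none above 4.94 FPKM in any library. The ferritin levels are uncertain to the extent that reads were shared.

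NCOA4 binds ferritin and takes it to the lysosome, where the stored iron is released (chr10:46005088-46030623, minus strand). Its level was 20.8, 21.9 and 20.9 FPKM in si-SCR and 21.1 and 19.3 FPKM in si-circVAMP3. The groups overlapped, si-circVAMP3 replicate 2 being the lowest of the 5. The log2 difference was -0.07, with a 95% interval of -0.20 to 0.06 (limma, adjusted p = 0.375), and ranged from -0.131 to -0.00668 with a library left out.

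HMOX1, haem oxygenase 1, splits haem into biliverdin, carbon monoxide and ferrous iron and is a classic stress-inducible gene (ENSG00000100292, chr22:35380361-35394214, plus strand). It was measured at 8.71, 9.12 and 7.36 FPKM in si-SCR and at 14.8 and 12.7 FPKM in si-circVAMP3. Each si-circVAMP3 library was above every si-SCR library, and the gap between the groups was wider than the spread within either. The group means were 8.40 ± 0.922 (SD, n = 3) and 13.8 ± 1.50 (SD, n = 2) FPKM. The log2 difference of 0.68 (SE 0.104, 95% interval 0.44 to 0.93) was the largest among the members, and limma called it with an adjusted p of 0.00503. It ranked 84 of 12245 among the rises. With si-circVAMP3 replicate 1 left out, the HMOX1 difference was 0.577, below the 0.603 of FTL. Without si-circVAMP3 replicate 1 the adjusted p was 0.0485, still under the threshold. The level rests on at least 211 to 421 reads per library, far fewer than for FTL.

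ACO1 is iron regulatory protein 1, which holds an iron-sulfur cluster and works as cytosolic aconitase when iron is plentiful and binds hairpins when the cluster is lost (chr9:32384603-32454769, plus strand). Its mRNA stood at 6.49, 6.24 and 6.63 FPKM in si-SCR and at 7.15 and 7.0 FPKM in si-circVAMP3. The groups did not overlap. The log2 difference of 0.12 (95% interval -0.01 to 0.25) did not pass (limma, adjusted p = 0.133).

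IREB2 is iron regulatory protein 2, which is controlled mainly by degradation of the protein when iron is plentiful (chr15:78437431-78501453, plus strand). Its mRNA stood at 13.3, 14.1 and 14.6 FPKM in si-SCR and at 15.46 and 15.50 FPKM in si-circVAMP3. The groups did not overlap, and the si-circVAMP3 libraries were nearly equal. The log2 difference was 0.14 (95% interval 0.01 to 0.27, limma, adjusted p = 0.0949). Without si-SCR replicate 3 it was 0.17 with an adjusted p of 0.0425, so the same library decides whether IREB2 is called. In every library IREB2 mRNA was more abundant than ACO1 mRNA.

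**Figure D3:**
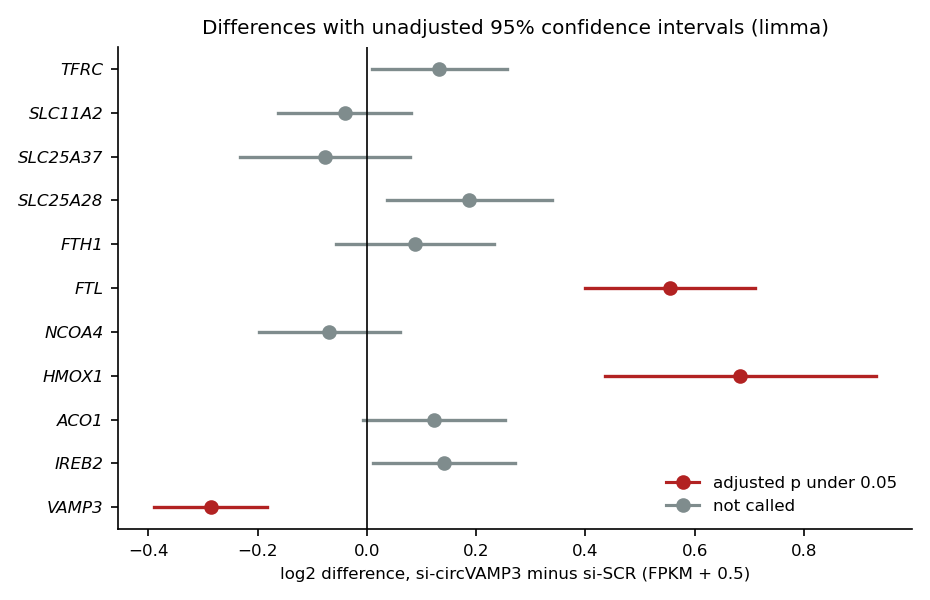
Log2 difference of log2(FPKM + 0.5), si-circVAMP3 (n = 2) minus si-SCR (n = 3), for the 10 iron genes and VAMP3; points are limma estimates, bars are unadjusted 95% intervals, and red marks an adjusted p under 0.05. FTL at 0.55, HMOX1 at 0.68 and VAMP3 at -0.29 are red, and the 8 grey genes lie between -0.08 and 0.19.

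The members span a wide range of levels. By mean FPKM in si-SCR the order was FTL, FTH1, TFRC, NCOA4, IREB2, SLC25A37, SLC11A2, HMOX1, SLC25A28 and ACO1. Neighbours in this order did not overlap across the 3 si-SCR libraries, except HMOX1 and SLC25A28, with 8.40 ± 0.922 and 8.16 ± 0.473 FPKM (SD, n = 3). Over all 5 libraries FTL was the row ranked 18 of 13822 by mean FPKM, FTH1 was ranked 60 and TFRC 482, whereas ACO1 was ranked 5727. In si-circVAMP3 HMOX1 stood above SLC11A2, SLC25A37 and SLC25A28 in each library. Any order between genes rests on the exon lengths the authors used, which for HMOX1, TFRC, SLC25A28 and NCOA4 could not be matched to the annotation; ratios of the FPKM of a gene between libraries do not depend on them.

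Other genes of iron metabolism are given as lists beside the members. Their counts stand beside 14.6% of all rows called higher and 15.8% called lower. Of 16 further genes of iron entry and exit 7 were tested, 3 rose and 0 fell, with a median log2 difference of 0.34, the value of SLC40A1. CYBRD1, a ferric reductase, rose from 15.9 ± 0.814 to 21.7 ± 1.15 FPKM (mean and SD, adjusted p = 0.00346, limma), while MCOLN1, a lysosomal channel that passes iron, and STEAP3, the endosomal reductase of the transferrin cycle, rose with log2 differences of 0.49 and 0.44. SLC40A1, the exporter ferroportin, was at 0.762, 0.776 and 0.750 FPKM in si-SCR and 0.935 and 1.28 FPKM in si-circVAMP3 (adjusted p = 0.0548). The list of 10 genes for cytosolic iron handling also takes in the transcription factors HIF1A and EPAS1. Of these 10 genes 8 were tested, 2 rose and 2 fell, with a median of 0.04, and the 2 that fell were HIF1A and EPAS1. HIF1A, an oxygen-regulated transcription factor, fell from 27.0 ± 0.504 to 16.0 ± 0.335 FPKM (adjusted p = 0.000221, limma), EPAS1 fell by 0.45 on the log2 scale (-0.70 by voom, which adds less to low values), and SKP1 and GLRX3 rose with 0.36 and 0.28. SKP1 belongs to the ligase that degrades IREB2 protein, and FBXL5, its iron-sensing subunit, was at 7.58, 6.78 and 7.89 FPKM in si-SCR and 7.04 and 7.67 FPKM in si-circVAMP3, with overlapping groups (adjusted p = 0.931). SLC40A1 depends on the library: its log2 difference was 0.49 and called without si-circVAMP3 replicate 1 (0.0436) but 0.18 and not called without si-circVAMP3 replicate 2 (0.287), and it was called with a common median (0.0405) and, at 0.56, by voom, among other settings. CYBRD1, HIF1A and SKP1 were called with each library left out, whereas MCOLN1, GLRX3 and EPAS1 lost the call without si-circVAMP3 replicate 2 (adjusted p from 0.0644 to 0.0875) and STEAP3 without either si-circVAMP3 replicate (0.105 and 0.136).

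Of 13 genes of haem breakdown and the NRF2 response, a stress programme that includes HMOX1, 12 were tested, 2 rose and 5 fell, with a median of -0.04. NQO1, a target of NRF2, rose from 48.4 ± 5.15 to 62.0 ± 3.11 FPKM (adjusted p = 0.0254, limma), and KEAP1, the inhibitor of NRF2, rose with a log2 difference of 0.23. SLC7A11, GCLC and TXNRD1, further targets, fell by 0.55, 0.38 and 0.38 on the log2 scale, and BACH1, a repressor of HMOX1, and HMOX2, the constitutive haem oxygenase, fell by 0.31 and 0.33. NFE2L2, which encodes NRF2, was at 21.9 to 24.0 FPKM with overlapping groups (adjusted p = 0.648, limma). Of 18 genes of haem synthesis and transport 16 were tested, 2 rose and 2 fell, with a median of -0.00431. ALAS1, the first enzyme of haem synthesis, rose from 17.6 ± 1.08 to 22.7 ± 0.684 FPKM (adjusted p = 0.00723, limma), SLC25A38, a mitochondrial glycine carrier, rose with 0.22, and the enzyme CPOX fell by 0.30. TXNRD1 was called with each library left out. ALAS1 and SLC7A11 lost the call without si-circVAMP3 replicate 1 (adjusted p of 0.0648 and 0.0700, limma), HMOX2 without si-SCR replicate 2 or si-circVAMP3 replicate 2 (0.0556 and 0.0964), and NQO1, GCLC and CPOX without either si-circVAMP3 replicate (0.0570 to 0.155). SLC25A38, KEAP1 and BACH1 lost it without either of these or si-SCR replicate 2 (0.0617 to 0.149).

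Iron-sulfur assembly held the largest fall of all 12245 rows tested, in GLRX5, the mitochondrial glutaredoxin that passes clusters on. GLRX5 was at 39.0, 36.9 and 36.7 FPKM in si-SCR and at 8.11 and 8.78 FPKM in si-circVAMP3, a log2 difference of -2.09 (SE 0.0537, adjusted p = 4.39e-05, limma). All 25 genes of this list were tested, 4 rose and 3 fell, with a median of 0.07. CIAO1, ISCU, ISCA1 and HSPA9 rose with log2 differences of 0.19, 0.18, 0.17 and 0.15, and NUBP1 and CIAO2B fell by 0.22 and 0.20. Of 12 iron-sulfur enzymes 11 were tested, 1 rose and 3 fell, with a median of -0.02. The DNA glycosylase NTHL1 and the complex I subunit NDUFV1 fell by 0.65 and 0.19, and the complex II subunit SDHB rose with 0.14. Of 6 further mRNAs listed as known for an iron-responsive element, of which the search above found no match in EPAS1, CDC42BPA or ALAS2, 5 were tested and 2 fell, EPAS1 among them, with a median of -0.13. GLRX5 was called with each library left out. NUBP1 lost the call without si-circVAMP3 replicate 2 (adjusted p = 0.101, limma), NTHL1 without si-circVAMP3 replicate 1 (0.0601), and CIAO2B and HSPA9 without si-SCR replicate 2 or either si-circVAMP3 replicate (0.0513 to 0.129). CIAO1, ISCU, ISCA1 and NDUFV1 lost it without either of these or si-SCR replicates 1 or 2 (0.0585 to 0.197), and SDHB without any of the 5 (0.0657 to 0.261).

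The 13 mRNAs of the mitochondrial genome, a check on library makeup, summed to 49459, 52865 and 48876 FPKM in si-SCR. In si-circVAMP3 they summed to 49500 and 46685 FPKM. Their median log2 difference was -0.13. In 5 every si-circVAMP3 value lay below every si-SCR value and in 1 above, against 28.9% and 29.5% of all rows tested. Of the 13, 1, MT-ATP8, was called lower, a call lost without any library but si-SCR replicate 3 (limma).

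**Figure D4:**
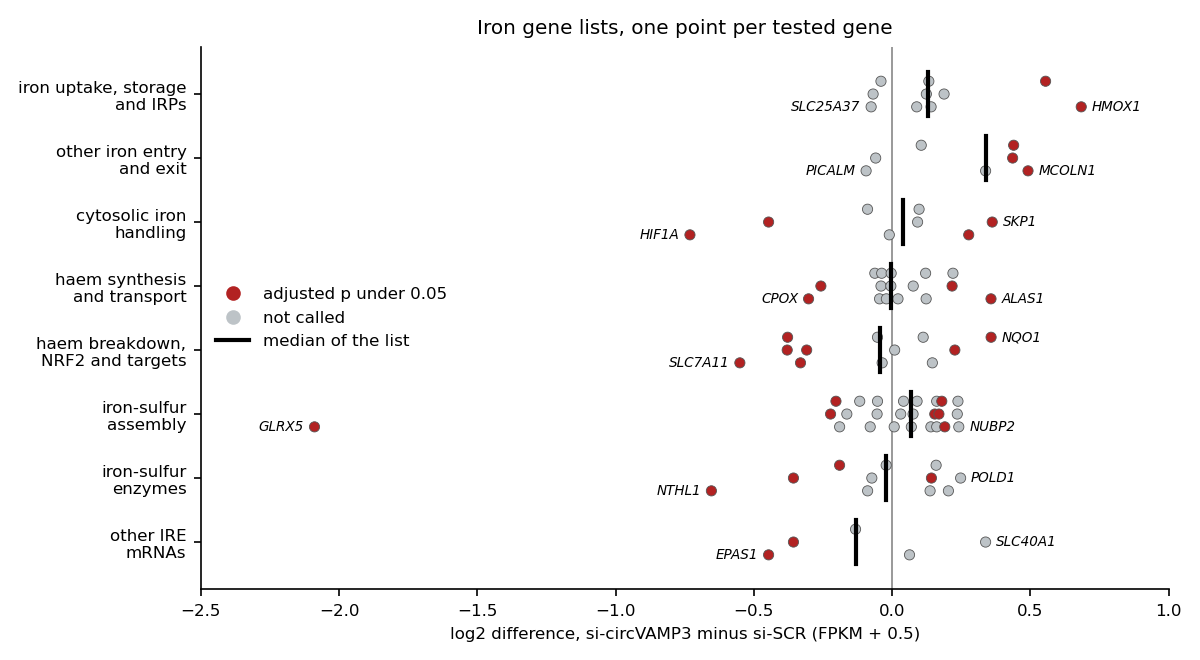
Log2 difference of log2(FPKM + 0.5), si-circVAMP3 minus si-SCR (horizontal axis), for each tested gene of 8 iron gene lists (rows); red points have an adjusted p under 0.05 (limma), vertical offsets only separate points, bars are list medians and the outermost genes are named. GLRX5 at -2.09 stands apart from every other point, and HMOX1 at 0.68 is the highest.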

How the data were processed

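Polyadenylated RNA of RH4 cells was sequenced by the authors on stranded paired-end libraries. Per the study's methods and the submitters' processing notes, reads were converted with bcl2fastq 2.20.0.422, trimmed with Trimmomatic, aligned with STAR 2.5.2b to GRCh38 with an Ensembl annotation and counted per gene on the reverse strand with htseq-count. Genes under 1 CPM (reads scaled to library size) in at least 3 samples were removed, and the deposited FPKM values were computed by the authors with edgeR. The deposited table gives Ensembl identifiers, of which 13783 matched a symbol and 39 did not.

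Values were transformed to log2(FPKM + 0.5). The 12245 rows with a mean of at least 0.5 FPKM over the 5 samples were fitted with limma 3.58.1 in R 4.3.3 (eBayes with an intensity trend), si-circVAMP3 against si-SCR with no block, and p-values were adjusted over these rows by the Benjamini-Hochberg method. All 10 members passed this filter on low values. Differences are on the log2(FPKM + 0.5) scale, which understates changes of low genes. Calls are at an adjusted p under 0.05, and intervals are unadjusted 95% intervals. The fit was tested on simulated data.

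FPKM steps gave whole reads, within 0.01 read, for 100% of rows and so the depth of each library: 26332967, 24946509 and 24835912 reads over the rows in si-SCR and 18552661 and 28705009 in si-circVAMP3. These are the smallest whole reads that fit the 5 values of a gene, raised by a whole factor in 342 rows where the annotated exon length called for it, and for HMOX1, TFRC and SLC25A28 a whole multiple of them was not settled. Genes named beyond the members and VAMP3 are up to 3 called genes in each direction of each list, plus GLRX5 and FBXL5, some such genes, and a sequence window, being not reported here, the genes yet counted in their lists; SLC40A1, NFE2L2, BACH1, HMOX2, HSPA9, MT-ATP8 and the markers named are additions made after their values were seen. The members and lists were chosen with earlier results of these data known. Alternatives changed the pseudocount, filter, scaling, trend and libraries.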

Additional observations from a re-analysis of the deposited data

How the results depend on the processing

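The calls of FTL and HMOX1 held under each of the 9 other settings and each of the 5 libraries left out. The log2 difference of FTL ranged from 0.51 to 0.61 and its adjusted p from 0.000189 to 0.0303 (limma), and that of HMOX1 from 0.58 to 0.79 and from 0.00255 to 0.0485. The number of members called was 2 under other pseudocounts, filters and scalings and ranged from 2 to 4 over the left-out libraries, with 4 without si-SCR replicate 3, where TFRC and IREB2 were added. The share of members called was below that of all rows in the main setting and above it without any library but si-SCR replicate 1 and with the replicate block. Past the fold limit, FTL joined HMOX1 without si-SCR replicate 2 and under quantile normalization, and without si-circVAMP3 replicate 1 FTL passed and HMOX1, at 0.577, did not.

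FTH1 changed sign to -0.0229 under quantile normalization and -0.00364 without si-circVAMP3 replicate 2, the left-out libraries giving at most 0.181. NFE2L2 ranged from -0.0952 to 0.0227 over them, above 0 without si-circVAMP3 replicate 2. FBXL5, at -0.01 in the main setting, changed sign to 0.0102 with a common median, 0.00791 under quantile normalization and 0.0326 with the replicate block. With a library left out it ranged from -0.0692 to 0.0476, above 0 without si-SCR replicate 1, si-SCR replicate 3 or si-circVAMP3 replicate 1. None of these genes was called in any setting. The cause was not tested.

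Calls over all rows ranged from 1260 to 4000 with a library left out, where a group left with 1 library is assumed to vary like the other. Calls past the fold limit numbered 466 in the main setting. They were 334 with a pseudocount of 1, 683 with a pseudocount of 0.1 and 726 by limma voom on the recovered reads. Voom was an alternative added after seeing the data and called 4112 rows in all.

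With the replicate block 3122 rows were called, and TFRC was added at 0.18 (adjusted p = 0.0402, limma). Only si-SCR has a replicate 3, so the block gives the same log2 differences as leaving out si-SCR replicate 3. It is therefore not a separate check on them. The deviations of same-numbered libraries from their group means correlated at -0.152 and -0.0356. With 2 si-circVAMP3 libraries, their deviations mirror each other, so these values cannot decide whether the numbers pair the samples. Of 32 called genes named beyond the members, 7 were called under each setting and 16 lost the call only with a library left out. The other 9, MT-ATP8, CIAO1, ISCU, ISCA1, HSPA9, KEAP1, BACH1, SDHB and NDUFV1, also lost it with no intensity trend, another scaling or the replicate block. Calls per list ranged, with a library left out, from 1 to 3 for iron entry and exit, 2 to 5 for cytosolic handling, 1 to 5 for haem synthesis and transport, 2 to 7 for haem breakdown and NRF2, 1 to 8 for iron-sulfur assembly, 1 to 4 for iron-sulfur enzymes and 1 to 3 for further mRNAs known for the hairpin. With no intensity trend, 3 genes of iron-sulfur assembly and 2 iron-sulfur enzymes were called, against 7 and 4 in the main setting. The share of all rows called was then 27.8%, against 30.4% in the main setting.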
